A study of Mus musculus with 4 samples.

Results

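The Ly6 family genes described here are Ly6a, Ly6c1, Ly6c2, Ly6e, Ly6i and Ly6d, taken by their symbols from the 31253 genes of the 2 single-cell libraries, where each of the 6 has 1 row. They were not chosen by a threshold on a measured value, but earlier results of these data were known when they were chosen. Ly6 proteins are small surface proteins tethered to the outer membrane by a glycosylphosphatidylinositol anchor, and many of their mouse genes lie together on chromosome 15. Several serve as the antigens by which immune cells are sorted. Ly6a encodes Sca-1, a marker of mouse haematopoietic stem and progenitor cells that activated lymphocytes also carry, and Ly6c1 and Ly6c2 encode the Ly6C antigen that separates classical from non-classical monocytes. Ly6e encodes a broadly expressed member with roles in thymocytes, placenta and virus entry, Ly6d marks lymphoid progenitors committed towards B cells and is kept by B cells, and Ly6i is a close relative of Ly6a. Ly6a and the Ly6C genes are well known as interferon-inducible.

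The libraries held live CD45+ leukocytes from tumor-bearing hemispheres of mice with intracranial CT2a glioma, a mouse glioma line, on day 14 after implantation. They came from 4 wild-type (WT) mice and 4 CaMKK2 KO mice, which lack the kinase CaMKK2 in the whole body and not in a chosen cell type, both in the C57Bl/6 background. The 4 mice of a genotype carried hashtag antibodies and shared 1 droplet channel, so genotype and channel cannot be told apart. Per the methods, WT mice were bought while the knockout line came from another laboratory, and the mice were not said to be littermates. For the experiments in general the paper's reporting summary gives females of 8 to 12 weeks, matched for age and sex. The methods give a younger age for the purchased mice. The deleted part of Camkk2 is not given in the sources used here. After filtering, 5225 WT and 5770 CaMKK2 KO cells were kept, with 12647637 to 20933990 unique molecular identifiers (UMIs) per mouse, and 8 barcodes occurred among the kept cells of both libraries. Levels are CPM (UMIs of a gene per 1000000 UMIs of the same cells), and a mouse gave a value in a class where it had at least 10 cells.

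Cells were placed in classes by summed UMIs of marker genes, with no Ly6 gene among them. Tumor-associated macrophage (TAM)-like cells held C1qa, C1qb, C1qc, Mertk, Adgre1, Fcgr1 and Ms4a7, microglia-like cells P2ry12, Tmem119, Sall1, Gpr34, Sparc, P2ry13 and Olfml3, and classical monocyte-like cells Vcan, Ccr2, Chil3, Plac8, F13a1 and Hp. NK-like cells were taken by Ncr1, Klrb1c, Eomes, Klre1 and Klra8. T cells were taken by Cd3d, Cd3e and Cd3g and split by Cd8a and Cd8b1, Cd4, and Foxp3 (Treg-like). The remaining classes were taken by their own markers. The labelled tissue held its defining marker: Ptprc, which encodes CD45, had a UMI in 96.4% of WT and 97.9% of CaMKK2 KO cells, and 6 endothelial genes, whose cells carry Ly6a and Ly6c1 in the brain, summed to 16.8 and 14.5 CPM. WT mouse 1 stood apart from the other WT mice: TAM-like and microglia-like cells were 44.0% and 19.4% of its cells and classical monocyte-like cells 3.63%, against 23.0% to 33.9%, 3.81% to 9.61% and 9.09% to 22.9% in the other 3. The 3′ tags of Camkk2 itself were lower in CaMKK2 KO mice in TAM-like cells, at 11.6 to 16.7 against 23.7 to 31.0 CPM (log2 fold change -1.05 ± 0.14 (SE), edgeR adjusted p = 0.0058), and were not absent, and they may lie outside the deleted part.

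In the mouse genome (GRCm38, GENCODE annotation) the 6 genes span 349915 bases of chromosome 15. In order of position they are Ly6d (ENSMUSG00000034634, 74762056 to 74763620, minus strand), Ly6e (ENSMUSG00000022587, 74955051 to 74959905, plus strand), Ly6i (ENSMUSG00000022586, 74979534 to 74983430, minus strand), Ly6a (ENSMUSG00000075602, 74994877 to 74998031, minus strand), Ly6c1 (ENSMUSG00000079018, 75044018 to 75048830, minus strand) and Ly6c2 (ENSMUSG00000022584, 75108158 to 75111970, minus strand). Ly6c1 and Ly6c2 are near copies: 384 of the 393 bases of their coding sequences were the same, an identity of 97.7%. Ly6a was 86.3% identical to Ly6i, 82.6% to Ly6c1 and 82.1% to Ly6c2, while the pairs with Ly6e or Ly6d lay between 51.9% and 56.3%. Of the 9 bases that separate the Ly6c coding sequences, 6 fall in the stretch from base 6 to base 65, counted from the A of the start codon, and stand in capitals here:
Ly6c1: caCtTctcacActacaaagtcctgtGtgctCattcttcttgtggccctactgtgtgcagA
Ly6c2: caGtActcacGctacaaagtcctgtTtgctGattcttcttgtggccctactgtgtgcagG

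The reads of this assay come from the 3′ end of transcripts. Of the 310 windows of 91 bases, the read length, in the last 400 bases of each transcript, 34 (11%) were shared by Ly6c1 and Ly6c2, and none were shared with another member by Ly6a, Ly6i, Ly6e or Ly6d. Reads from those shared windows cannot be assigned to either Ly6c gene, so the values of the pair are uncertain to that extent. The sequences just upstream of their starts are less alike than the coding sequences. The 250 bases before the start site (RefSeq, GRCm38.p6, minus strand, chr15:75048838-75049087 for Ly6c1 and chr15:75111972-75112221 for Ly6c2) aligned over 284 columns with 170 identical bases, or 59.9%. Both are shown because Ly6c2 was abundant in these cells and Ly6c1 nearly absent, with the 80 bases of each that had no identical partner in the alignment in capitals:
Ly6c1: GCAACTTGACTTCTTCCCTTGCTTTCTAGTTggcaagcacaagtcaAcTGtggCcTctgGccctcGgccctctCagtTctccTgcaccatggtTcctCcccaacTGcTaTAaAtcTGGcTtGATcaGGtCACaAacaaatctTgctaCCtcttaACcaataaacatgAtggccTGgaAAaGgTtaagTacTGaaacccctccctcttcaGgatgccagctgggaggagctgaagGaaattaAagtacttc
Ly6c2: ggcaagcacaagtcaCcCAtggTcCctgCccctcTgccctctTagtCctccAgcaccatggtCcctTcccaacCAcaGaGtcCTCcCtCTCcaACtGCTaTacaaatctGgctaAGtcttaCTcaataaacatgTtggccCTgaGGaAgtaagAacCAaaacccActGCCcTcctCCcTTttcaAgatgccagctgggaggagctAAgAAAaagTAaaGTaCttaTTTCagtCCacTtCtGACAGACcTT
A search of both strands found neither GAAA, any 2 bases and GAAA, the core of an interferon-stimulated response element, nor TTC, any 3 bases and GAA, the core of a STAT site, in these 2 windows. Of 32851 promoters of the same length, 2.98% and 7.02% held them. Promoters of Ly6a, Ly6e, Ly6i and Ly6d were not analysed here.

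Each member had its own distribution over the classes (the plot of levels by class). Ly6a was detected in every class. Levels are ordered over the 14 tested classes, without the few neutrophil-like cells. In WT mice Ly6a was highest in pDC-like (plasmacytoid dendritic) cells at 2253.3 and 2376.5 CPM, then in Treg-like cells at 1359.0 to 2505.2 CPM and CD4 T-like cells at 696.2 to 1855.3 CPM. Its lowest WT levels were in NK-like cells at 42 to 118.4 CPM and non-classical monocyte-like cells at 27.4 to 244.2 CPM. The other WT class means ran without a break between, from 667.1 CPM in DC2-like cells to 206.2 CPM in mature migratory DC-like cells. No class was set apart from its neighbour in the order of means in either genotype, since the mice of neighbouring classes overlapped throughout.

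Ly6c2 was highest in the cells that the Ly6C antigen is used to mark and in pDC-like cells. WT classical monocyte-like cells held 553.2 to 1520.3 CPM and pDC-like cells 1724.8 and 2788.9 CPM. CD8 T-like cells (346.4 to 989.7 CPM), other T cells (558.7 to 992.2 CPM), non-classical monocyte-like cells (115.0 to 655.8 CPM) and TAM-like cells (65.9 to 596.2 CPM) overlapped in the middle. The non-classical monocyte-like level came from few cells: 3 cells held 81.2%, 83.3% and 76.2% of the Ly6c2 UMIs in WT mice 2, 3 and 4. There 24.3% to 35.5% of the cells of these mice had a Ly6c2 UMI. Microglia-like cells, at 13 to 58.3 CPM, and Treg-like cells, at 5.1 to 21.6 CPM, were at the low end in WT mice. In CaMKK2 KO mice, among the tested classes, classical monocyte-like cells came first at a mean of 3417.7 CPM, and pDC-like cells, at 3030.8 and 3774.8 CPM, lay above the highest mouse of the class that followed, CD8 T-like cells at 1913.6 CPM. B-like cells were uneven, from 24.6 to 1093.5 CPM over the WT mice, and 3 cells held 100% of the Ly6c2 UMIs in B-like cells of WT mice 1, 3 and 4.

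Ly6i was highest in the monocyte and macrophage classes. WT non-classical monocyte-like cells (104.0 to 307.7 CPM), classical monocyte-like cells (31.1 to 256.4 CPM) and TAM-like cells (6.5 to 144.1 CPM) had the highest levels, and the same 3 led the 14 tested classes in CaMKK2 KO mice at means of 546.2, 985.6 and 776.5 CPM, where the lowest of them did not overlap mature migratory DC-like cells (101.5 to 200.8 CPM). Neutrophil-like cells, which were not tested, reached 1263.7 CPM in the 1 CaMKK2 KO mouse with enough of them, from 40 UMIs in 1 of 11 cells. NK-like cells held 0.9 to 3.3 CPM in WT and 4.8 to 13.1 CPM in CaMKK2 KO mice. In the pooled cells of each genotype the NK level was 2.07% and 1.34% of the Ly6i level over all cells, and for C1qa, a macrophage gene that NK cells should lack, it was 1.45% and 1.40%. For Lyz2, another phagocyte gene, it was 3.68% and 2.81%, so Ly6i lay between the 2 in WT mice and just under both in CaMKK2 KO mice. Whether the Ly6i UMIs of NK-like cells were background RNA was not tested. At median depths of 8872 and 6577 UMIs, 1.97% and 6.11% of NK-like cells had a Ly6i UMI. The Ly6a level in NK-like cells was 19.5% and 27.0% of that over all cells, and the Ly6c2 level 17.6% and 15.3%, above those of C1qa and Lyz2.

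Ly6e was the most even member. Its WT level was highest in pDC-like cells, at 3005.0 and 3075.3 CPM and above every mouse of the next class, and lay between 659.8 and 2230.7 CPM in every mouse of the other classes apart from mature migratory DC-like cells. Those cells, at 255.9 to 466.7 CPM in WT and 201.9 to 585.0 CPM in CaMKK2 KO mice, were below every mouse of CD8 T-like cells, the next class up, at 659.8 to 710.2 and 755.1 to 1111.2 CPM. Ly6d was found in pDC-like cells, at 2828.2 and 3948.7 CPM in WT and 1774.5 and 2156.7 CPM in CaMKK2 KO mice, and in B-like cells, at 446.4 to 1600.4 and 1051.9 to 1825.6 CPM. WT mouse 3, left out with 9 pDC-like cells, stood at 1699.0 CPM. CaMKK2 KO mice 1 and 4, left out with 9 and 3, stood at 1383.5 and 1426.0 CPM. In mature migratory DC-like cells WT mouse 3 reached 523.2 CPM, and all 139 of those UMIs came from 1 cell. In every other class each mouse held 5.1 CPM or less, apart from the cells in no class, where WT mice ranged up to 30.0 CPM.

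Ly6c1 was nearly absent, although its coding sequence is almost that of Ly6c2. Over all cells of the mice it had 46 UMIs in WT and 214 in CaMKK2 KO libraries. WT mice held 0, 0.6, 1.4 and 0.6 CPM and the CaMKK2 KO mice 1.9, 4.6, 1.6 and 4.1 CPM, so the genotypes did not overlap. Ly6c1 had no UMI in microglia-like, DC1-like, pDC-like or B-like cells of mice with at least 10 such cells. The count of 0 in WT mouse 1 allows up to 0.191 CPM (3 UMIs of its total, counting error only). Other T cells of WT mouse 3 held 17 of the WT UMIs. TAM-like cells of CaMKK2 KO mouse 2 held 38 of its 95 UMIs. Over all cells 3 cells held 30.0%, 68.0% and 45.5% of the Ly6c1 UMIs of WT mice 2, 3 and 4, and 64.7%, 53.7%, 36.4% and 23.1% of those of CaMKK2 KO mice 1 to 4. Of the kept cells, 0.625% to 0.806% of those of WT mice 2, 3 and 4 and 1.13% to 3.34% of those of the CaMKK2 KO mice had a Ly6c1 UMI.

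**Figure D1:**
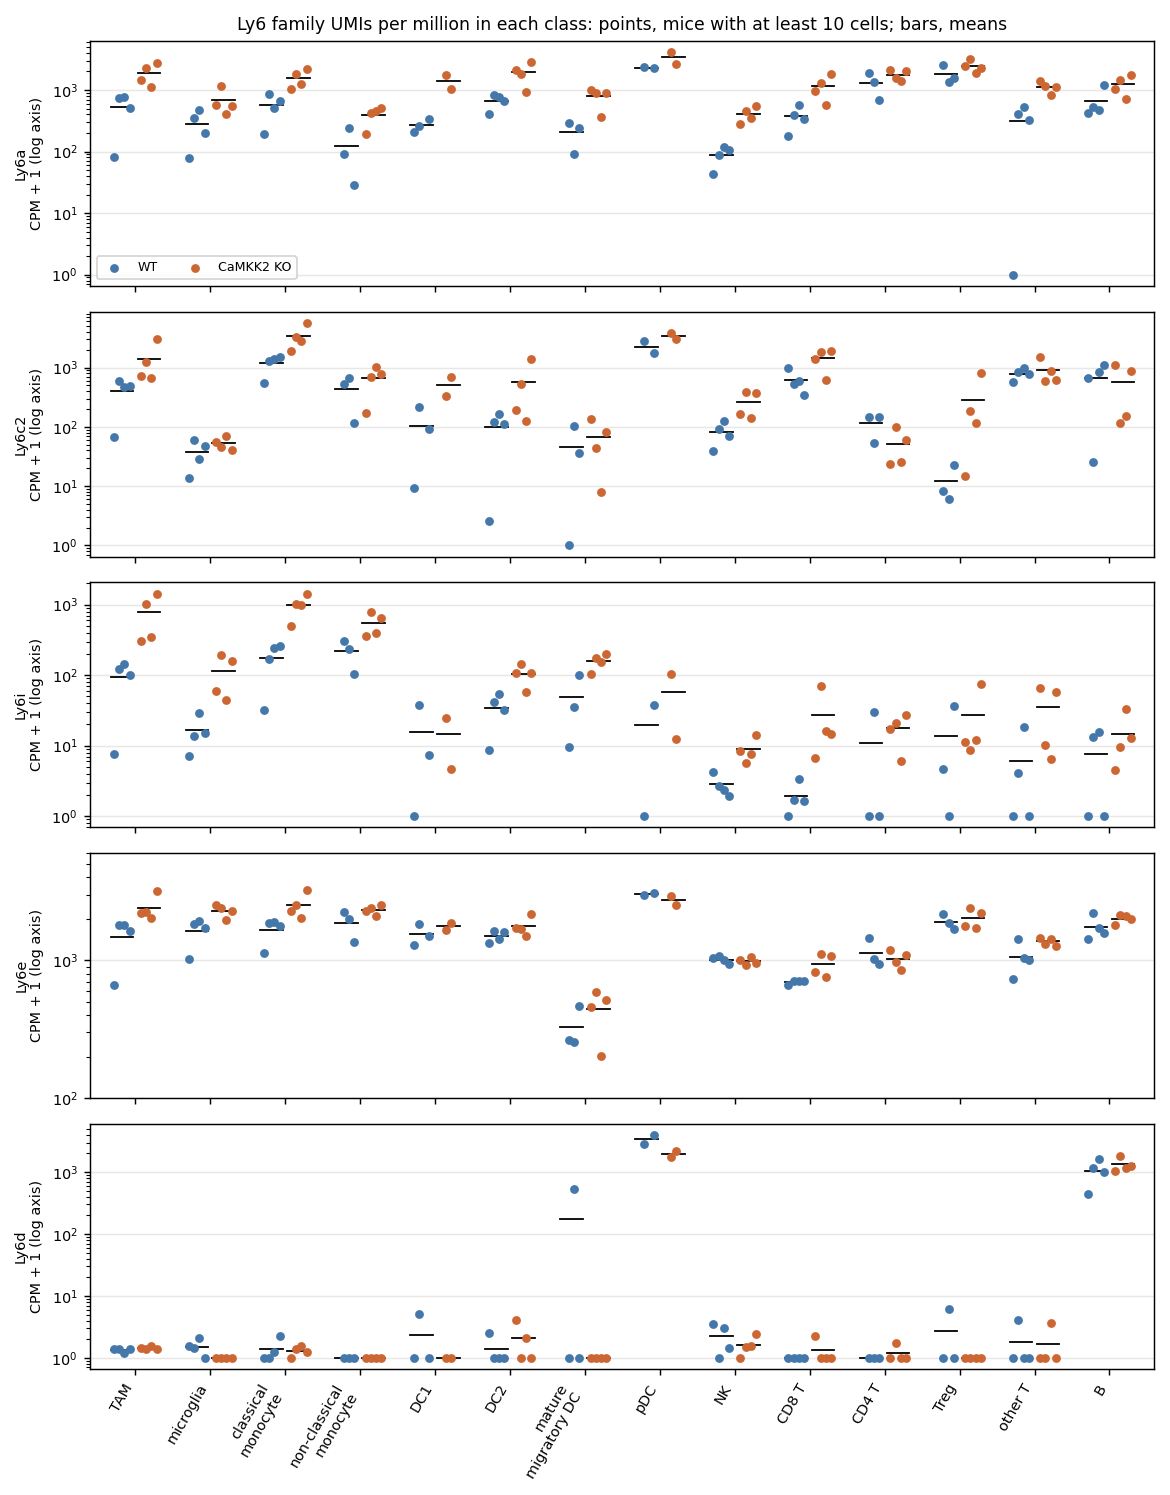
CPM + 1 on a log axis (y) of 5 members by marker class (x); each point is 1 mouse with at least 10 cells of the class, blue WT and orange CaMKK2 KO, and bars are means. Ly6e has a narrower axis, Ly6d stands high in pDC-like and B-like cells, and WT mouse 1 has the lowest TAM-like point for Ly6a (79.8 CPM) and Ly6i (6.5 CPM).

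CaMKK2 KO and WT mice were then compared in each class, by edgeR's quasi-likelihood test on UMIs summed per mouse, over every gene that reached 200 UMIs there and with Benjamini-Hochberg adjustment over those genes. Over the 14 classes 49 tests of a member could be made, of which 6 passed an adjusted p of 0.05, all of them higher in CaMKK2 KO mice. Log2 fold changes were above 0 in 43 of the 49. These values share mice and libraries and are not independent. The median log2 fold change of all genes lay between -0.113 in microglia-like cells and 0.111 in other T cells. The calls were Ly6a in DC1-like, NK-like and CD8 T-like cells, Ly6c2 in NK-like cells, and Ly6i in microglia-like and classical monocyte-like cells. Members called of those tested, with the percentage of all genes called in the same fit, were 0 of 4 in TAM-like cells (2.43%), 1 of 4 in microglia-like cells (2.75%), 1 of 4 in classical monocyte-like cells (1.70%), 1 of 3 in DC1-like cells (0.758%), 2 of 3 in NK-like cells (2.85%) and 1 of 3 in CD8 T-like cells (1.32%).

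In the other classes no member passed, although some had an unadjusted p under 0.05. That was 0 of 4 in non-classical monocyte-like cells (0.546% of all genes called; 2 members under 0.05 unadjusted), 0 of 4 in DC2-like cells (0.772%; 3), 0 of 3 in mature migratory DC-like cells (0.631%; 2), 0 of 4 in pDC-like cells (0%; 1), 0 of 3 in CD4 T-like cells (0.263%; 0), 0 of 3 in Treg-like cells (1.04%; 1), 0 of 3 in other T cells (0.792%; 1) and 0 of 4 in B-like cells (0.0787%; 1). In TAM-like cells all 4 tested members had an unadjusted p under 0.05. Cells in no class gave 0 of 4 (1.58%; 4), and all cells of a mouse together 0 of 6 (1.51%; 5). The percentages are of all genes at the adjusted threshold. Shares of all genes at the unadjusted threshold are not given, so the unadjusted counts have no background and cannot be read as an excess. DESeq2, the other count test, called a larger share of all genes in every class. Its members called, with its percentage of all genes, were 3 over all cells (6.28%), 1 in TAM-like (6.23%), 1 in microglia-like (3.85%), 3 in classical monocyte-like (4.22%), 1 in non-classical monocyte-like (1.29%), 1 in DC1-like (1.19%), 2 in DC2-like (2.29%), 1 in mature migratory DC-like (3.15%), 2 in NK-like (3.15%), 1 in CD8 T-like (2.13%), 1 in Treg-like (1.51%) and 1 in unclassed cells (3.66%), and 0 in pDC-like (1.17%), CD4 T-like (1.49%), other T (6.02%) and B-like cells (1.10%). Fewer cells of a kind and less RNA per cell cannot be told apart in the sums over all cells.

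Ly6a was tested in all 14 classes, and all 14 log2 fold changes were above 0, from 0.44 to 2.35 with a median of 1.55. The 14 values come from the same mice and are not independent. In NK-like cells the WT mice held 42, 86.7, 118.4 and 103.5 CPM and the CaMKK2 KO mice 282.8, 457.5, 350.3 and 553.0 CPM. Every CaMKK2 KO mouse was above every WT mouse by more than the WT spread. The log2 fold change was 2.20 ± 0.26 (SE) with an edgeR adjusted p of 0.0004, and Ly6a passed in NK-like cells under all 15 alternatives. In cells thinned to 2000 UMIs each, 6.38% to 10.7% of WT and 20.0% to 39.1% of CaMKK2 KO NK-like cells had a Ly6a UMI, and in unthinned cells 18.1% to 29.6% and 33.3% to 69.2% (exact permutation test, two-sided, p = 0.029 for each, the smallest that 4 mice against 4 allow). Such shares were compared for 4 members in 5 classes, 20 tests in each form of the data, and their p are not adjusted. In the same cells the 6 classical monocyte markers summed to 596.8 to 863.1 CPM in WT and 849.8 to 1131.6 CPM in CaMKK2 KO mice, higher in the latter, and their part in the result was not tested. The 7 TAM markers were lower in CaMKK2 KO mice and summed to 131.1 to 177.3 CPM in WT and 84.0 to 119.0 CPM in CaMKK2 KO NK-like cells.

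In CD8 T-like cells Ly6a stood at 181.1, 385.4, 574.2 and 341.4 CPM in WT and 973.8, 1306.0, 573.8 and 1808.4 CPM in CaMKK2 KO mice. The groups overlapped, by 1 mouse: CaMKK2 KO mouse 3 lay at the level of WT mouse 3. The log2 fold change was 1.58 ± 0.32 (SE, edgeR adjusted p = 0.023). It was called under 8 of 15 alternatives, and with WT mouse 1, 2 or 4 or CaMKK2 KO mouse 2 or 4 left out it was 1.29 to 1.58 and not called, with adjusted p up to 0.107. Classical monocyte markers summed to 323.4 to 908.4 CPM in WT and 706.0 to 1227.8 CPM in CaMKK2 KO CD8 T-like cells, and their part in the result was not tested. In DC1-like cells 3 WT mice, at 208.0, 254.5 and 339.6 CPM, and 2 CaMKK2 KO mice, at 1739.2 and 1029.5 CPM, had enough cells. The log2 fold change was 2.35 ± 0.30 (SE, edgeR adjusted p = 0.0102), and without WT mouse 1 or CaMKK2 KO mouse 2 it was 2.20 and 1.93 and not called. Without CaMKK2 KO mouse 2 that genotype has 1 mouse, which is assumed to vary like the WT mice. These DC1-like values rest on 10 to 20 cells per mouse, and WT mouse 3, left out with 9 such cells, stood at 797.1 CPM. CaMKK2 KO mice 1 and 4, left out with 6 cells and 1 cell, stood at 1453.6 and 3770.5 CPM.

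In the macrophage, microglia and monocyte classes the Ly6a log2 fold changes were 1.31 to 1.85, below those of NK-like and DC1-like cells, and had larger SEs. In TAM-like cells the WT mice held 79.8, 735.9, 762.6 and 506.1 CPM and the CaMKK2 KO mice 1435.4, 2288.1, 1105.5 and 2707.0 CPM, and the genotypes did not overlap. The log2 fold change of 1.85 ± 0.58 (SE) had an edgeR adjusted p of 0.116, and without WT mouse 1 it was 1.5 with an adjusted p of 0.049. A UMI of Ly6a was found in 10.4% to 58.9% of thinned WT and 70.8% to 94.8% of thinned CaMKK2 KO TAM-like cells (unthinned 37.0% to 83.4% and 94.7% to 100%; exact permutation test, two-sided, p = 0.029 for each). Classical monocyte-like cells held 191.1, 862.3, 510.0 and 673.1 CPM in WT and 1039.9, 1842.4, 1228.5 and 2164.5 CPM in CaMKK2 KO mice (log2 fold change 1.48 ± 0.39 (SE), edgeR adjusted p = 0.094). Microglia-like cells, at 78.6 to 480.2 and 412.1 to 1182.7 CPM, overlapped (1.31 ± 0.46, adjusted p = 0.146), as did non-classical monocyte-like cells, at 27.4 to 244.2 and 194.1 to 505.2 CPM (1.60 ± 0.52, adjusted p = 0.267).

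The dendritic and remaining T cell classes lay on the same side for Ly6a. DC2-like cells held 401.6, 826.0, 775.1 and 665.6 CPM in WT and 2137.5, 1840.9, 924.5 and 2843.6 CPM in CaMKK2 KO mice, without overlap (log2 fold change 1.53 ± 0.31 (SE), edgeR adjusted p = 0.057). Classical monocyte markers in DC2-like cells ranged higher in CaMKK2 KO mice, with overlap: they summed to 786.0 to 1880.4 CPM in WT and 1682.2 to 4237.0 CPM in CaMKK2 KO mice. Their part in the Ly6a, Ly6i and Ly6c2 values of these cells was not tested. Mature migratory DC-like cells had a value of 1.92 ± 0.41 (adjusted p = 0.073) and other T cells 1.80 ± 0.61 (adjusted p = 0.147). The mature migratory DC-like levels rest on few cells: 3 cells held 65.5% to 95.8% of the Ly6a UMIs of WT mice 2 to 4 and 44.6% to 96.2% of those of the CaMKK2 KO mice. The smallest differences were in the classes with the highest WT levels: 0.44 ± 0.27 in CD4 T-like, 0.44 ± 0.22 in Treg-like and 0.56 ± 0.26 in pDC-like cells, with adjusted p of 0.545, 0.359 and 0.660. In B-like cells, at 428.9 to 1215.0 and 721.7 to 1752.2 CPM, it was 0.92 ± 0.36 (adjusted p = 0.299). The pDC-like value rests on 2 mice a genotype.

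**Figure D2:**
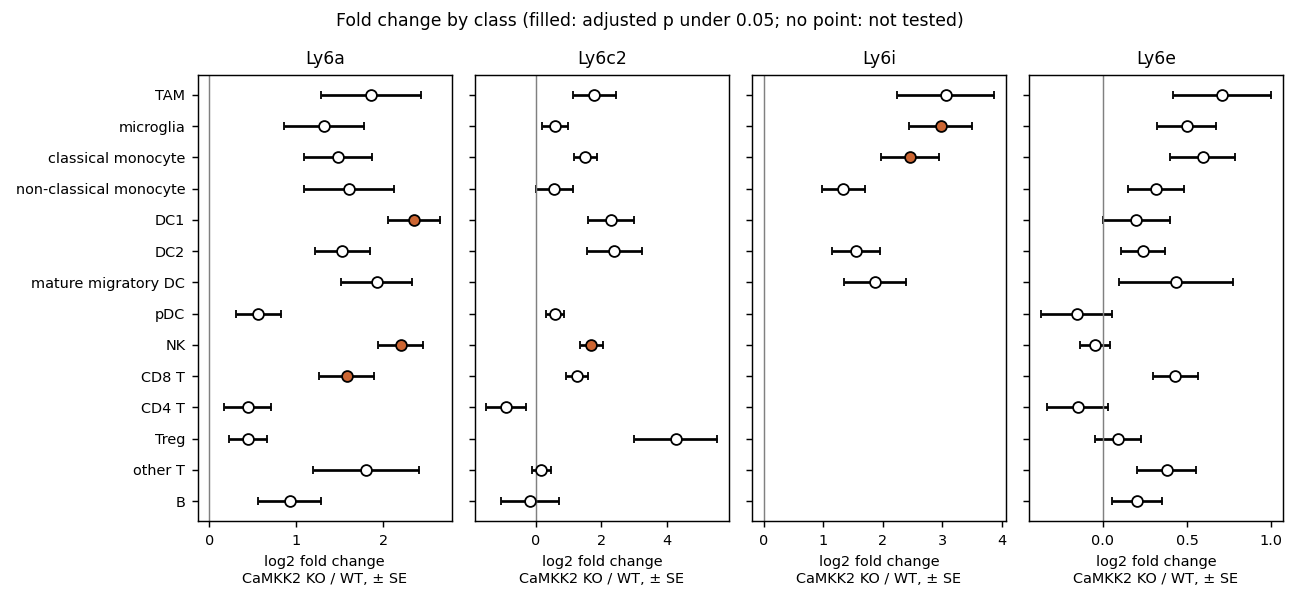
Log2 fold change of CaMKK2 KO over WT mice ± SE (x, with a scale of its own for each gene) by class (y) for 4 members; filled points passed an adjusted p of 0.05 and classes without a point were not tested. All 14 Ly6a points lie above 0, the Ly6e points lie between -0.16 and 0.71, and the Ly6i points reach 3.06 in TAM-like cells.

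Ly6i had the largest log2 fold change of the tested members in TAM-like, microglia-like and classical monocyte-like cells, and not in the other 3 classes where it was tested. In TAM-like cells the WT mice held 6.5, 123.0, 144.1 and 99.5 CPM and the CaMKK2 KO mice 302.1, 1018.8, 347.4 and 1437.8 CPM. The lowest CaMKK2 KO mouse was above the highest WT mouse, yet the CaMKK2 KO mice differed widely among themselves, and the log2 fold change of 3.06 ± 0.81 (SE) had an edgeR adjusted p of 0.085. Without WT mouse 1 it was 2.67 with an adjusted p of 0.049. In thinned cells 0.652% to 17.5% of WT and 31.0% to 77.0% of CaMKK2 KO TAM-like cells had a Ly6i UMI, and in unthinned cells 4.57% to 39.2% and 57.9% to 94.3% (exact permutation test, two-sided, p = 0.029 for each).

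Ly6i passed the test in 2 classes. In classical monocyte-like cells it stood at 31.1, 168.8, 239.6 and 256.4 CPM in WT and 495.3, 1016.3, 991.7 and 1439.2 CPM in CaMKK2 KO mice, which gave a log2 fold change of 2.46 ± 0.49 (SE, edgeR adjusted p = 0.036). All CaMKK2 KO mice were above all WT mice. It was called under 9 of 15 alternatives, and without WT mouse 2, 3 or 4 or CaMKK2 KO mouse 2 or 4 it was 2.22 to 2.68 and not called, with adjusted p up to 0.130. In microglia-like cells it stood at 6.2, 13, 28.5 and 14.2 CPM in WT and 57.8, 191.8, 43.2 and 156.4 CPM in CaMKK2 KO mice, again without overlap, which gave a log2 fold change of 2.97 ± 0.53 (SE, edgeR adjusted p = 0.016). A few cells carried much of it: 3 cells held 63.6%, 53.8%, 52.9% and 82.3% of the UMIs in CaMKK2 KO mice 1 to 4, and 27.3% to 59.3% in WT mice. After thinning 1.48% to 2.60% of WT and 2.86% to 23.1% of CaMKK2 KO microglia-like cells had a Ly6i UMI. In CaMKK2 KO mice 1 to 4 it was 5.13%, 23.1%, 3.03% and 2.86% of 39, 26, 66 and 35 thinned cells. The WT mice gave 52 to 203 thinned cells, so the low shares in both genotypes rest on very few cells. Before thinning the shares were 8.87% to 17.3% and 24.2% to 73.1% (exact permutation test, two-sided, p = 0.029 for each). Without WT mouse 4 or CaMKK2 KO mouse 2 the microglia value was 2.99 and 2.54 and not called, with adjusted p up to 0.057. Classical monocyte markers were higher in CaMKK2 KO mice there too: they summed to 162.5 to 206.4 CPM in WT and 259.8 to 428.0 CPM in CaMKK2 KO microglia-like cells, and their part in the result was not tested.

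In the other classes where Ly6i could be tested its log2 fold change was 1.34 ± 0.36 in non-classical monocyte-like, 1.55 ± 0.40 in DC2-like and 1.88 ± 0.52 in mature migratory DC-like cells, with edgeR adjusted p of 0.193, 0.117 and 0.137. Among mature migratory DC-like cells 3 cells held 69.6% to 100% of the Ly6i UMIs of WT mice 2 to 4 and 51.2% to 90.0% of those of the CaMKK2 KO mice. The lymphoid classes held under 200 Ly6i UMIs each and were not tested. CD8 T-like cells held 0, 0.7, 2.4 and 0.6 CPM in WT and 5.7, 69.5, 15.2 and 13.7 CPM in CaMKK2 KO mice. In the pooled CaMKK2 KO cells that level was 4.13% of the Ly6i level over all cells, where C1qa had 1.62% and Lyz2 3.46%. Of the 100 Ly6i UMIs pooled there 56 came from CaMKK2 KO mouse 2, and 3 cells held 85.7% of those 56. The share of CD8 T-like cells with a Ly6i UMI was 0% to 1.37% in WT and 0% to 4.08% in CaMKK2 KO mice after thinning (exact permutation test, two-sided, p = 0.143), and 0% to 2.74% and 5.41% to 22.4% before thinning (p = 0.029 by the same exact test).

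**Figure D3:**
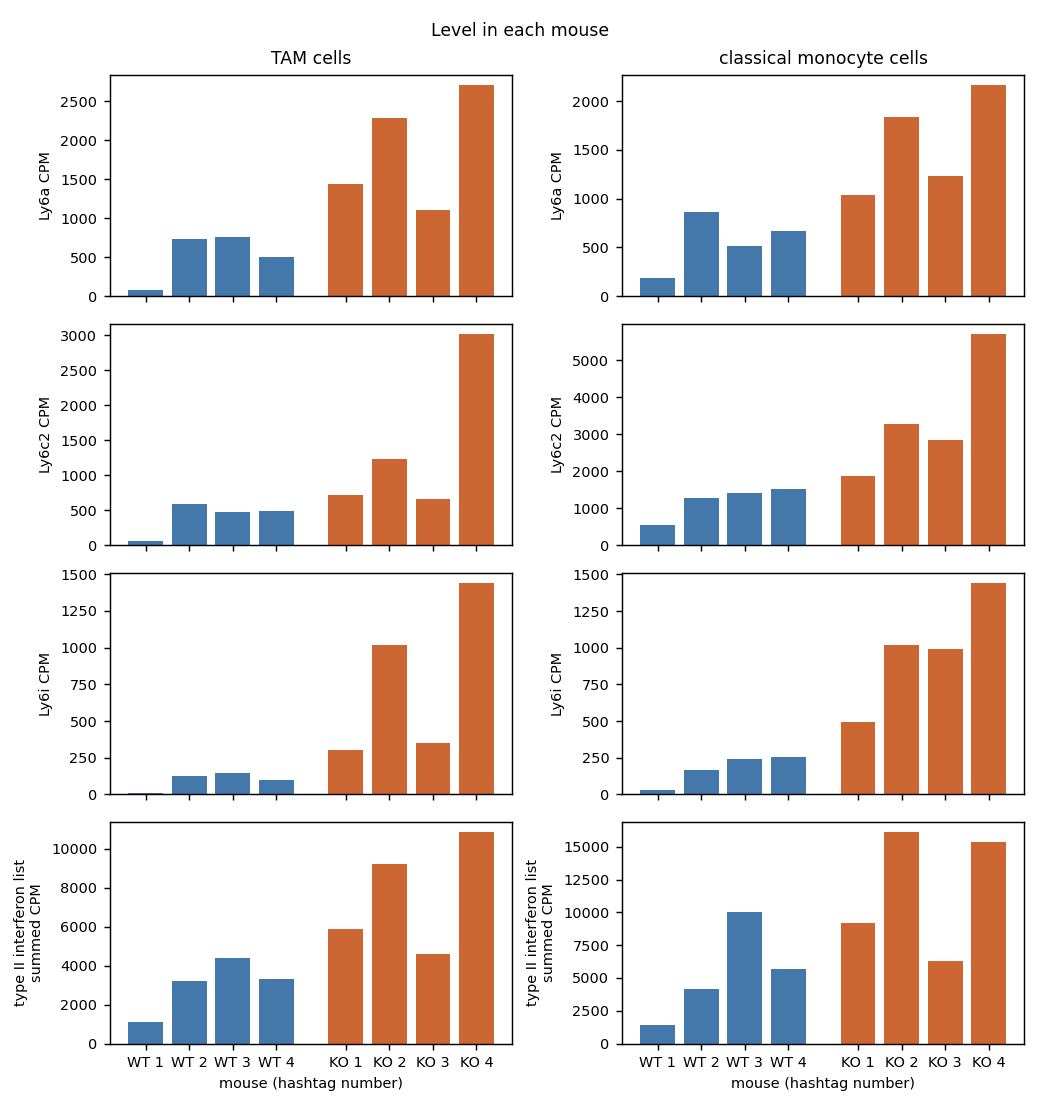
CPM of Ly6a, Ly6c2 and Ly6i and the summed CPM of the type II interferon list (y, from 0, own scale in each panel) in each of the 8 mice (x) in TAM-like and classical monocyte-like cells. WT mouse 1 is lowest in all 8 panels, at 79.8 CPM of Ly6a in TAM-like cells, and CaMKK2 KO mouse 4 is highest in 7, at 2707.0 CPM of Ly6a in TAM-like cells.

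Ly6c2, the Ly6C gene that these cells expressed, was called in NK-like cells. There the WT mice held 37.9, 90.7, 122.4 and 69.0 CPM and the CaMKK2 KO mice 164.8, 385.1, 141.6 and 368.7 CPM. The lowest CaMKK2 KO mouse was just above the highest WT mouse. The log2 fold change was 1.69 ± 0.35 (SE, edgeR adjusted p = 0.024), called under 10 of 15 alternatives, and without WT mouse 1, 2 or 4 or CaMKK2 KO mouse 2 or 4 it was 1.42 to 1.76 and not called, with adjusted p up to 0.097. The monocyte markers given beside Ly6a in these cells, of which Plac8 is also a gene of lymphocytes, were higher here too, and their part in the result was not tested.

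In classical monocyte-like cells Ly6c2 stood at 553.2, 1272.1, 1399.5 and 1520.3 CPM in WT and 1874.4, 3270.6, 2828.9 and 5697.1 CPM in CaMKK2 KO mice. The genotypes did not overlap, and the log2 fold change was 1.52 ± 0.36 (SE) with an edgeR adjusted p of 0.072. TAM-like cells held 65.9, 596.2, 476.0 and 487.8 CPM in WT and 718.7, 1240.1, 658.8 and 3017.2 CPM in CaMKK2 KO mice (log2 fold change 1.79 ± 0.66, edgeR adjusted p = 0.165), with CaMKK2 KO mouse 4 far above the other 3. Classical monocyte markers in TAM-like cells summed to 1034.6 to 1547.9 CPM in WT and 1324.7 to 2985.7 CPM in CaMKK2 KO mice, and their part in the Ly6c2 difference was not tested. The share of TAM-like cells with a Ly6c2 UMI was 7.17% to 31.4% in WT and 32% to 76.4% in CaMKK2 KO mice after thinning, and 20.9% to 51.0% and 57.0% to 93.1% before (exact permutation test, two-sided, p = 0.029 for each).

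The remaining Ly6c2 values were mixed. CD8 T-like cells had a log2 fold change of 1.27 ± 0.33 (SE, edgeR adjusted p = 0.075), with WT mice at 989.7, 529.9, 598.8 and 346.4 CPM and CaMKK2 KO mice at 1401.9, 1805.8, 604.6 and 1913.6 CPM, which overlapped. Treg-like cells had the largest value of any member, 4.27 ± 1.26 (adjusted p = 0.167), from 7.2, 5.1 and 21.6 CPM in 3 WT mice and 13.7, 183.8, 113.0 and 815.6 CPM in the CaMKK2 KO mice. The WT values rest on 2, 1 and 8 UMIs, where 3 UMIs would be 8.10 to 15.2 CPM. Few cells carried the difference: 3 cells held 94.3% of the Ly6c2 UMIs in the Treg-like cells of CaMKK2 KO mouse 4. DC2-like cells had a value of 2.40 ± 0.85 (adjusted p = 0.243), DC1-like cells 2.30 ± 0.71 (adjusted p = 0.415) and microglia-like cells 0.60 ± 0.40 (adjusted p = 0.429). Non-classical monocyte-like, pDC-like and other T cells had 0.58 ± 0.57, 0.59 ± 0.27 and 0.17 ± 0.29 (adjusted p = 0.795, 0.666 and 0.826). CD4 T-like cells, at -0.89 ± 0.60, and B-like cells, at -0.17 ± 0.88, were on the other side of 0 with adjusted p of 0.581 and 0.967. The B-like value turned to 0.50 with each cell given equal weight.

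Ly6e passed in none of the 14 classes, and its log2 fold changes ran from -0.16 to 0.71. At an unadjusted p under 0.05 it was on the higher side in CaMKK2 KO mice in TAM-like, microglia-like, classical monocyte-like and CD8 T-like cells, with edgeR adjusted p of 0.208, 0.149, 0.174 and 0.124. TAM-like cells held 662.2, 1802.7, 1820.1 and 1632.0 CPM in WT and 2201.8, 2244.3, 2017.5 and 3196.0 CPM in CaMKK2 KO mice, which did not overlap, with WT mouse 1 far below the other WT mice. Without that mouse the TAM value of 0.71 ± 0.29 was 0.46. In NK-like cells, where Ly6a and Ly6c2 rose, Ly6e was at 940.7 to 1068.0 CPM in WT and 920.2 to 1051.2 CPM in CaMKK2 KO mice, which gave a log2 fold change of -0.05 ± 0.09 (SE, adjusted p = 0.850). The share of NK-like cells with a Ly6e UMI was lower in CaMKK2 KO mice before thinning, at 79.9% to 95.7% against 96.3% to 99.3%, and overlapped after it, at 61.7% to 82.8% against 76.6% to 86.7% (exact permutation tests, two-sided, p = 0.029 and 0.171).

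Ly6d and Ly6c1 gave no call. Ly6d could be tested in B-like cells, at 0.33 ± 0.32 (SE, edgeR adjusted p = 0.693), and in pDC-like cells of 2 mice a genotype, at -0.78 ± 0.25 (adjusted p = 0.387). WT mouse 3, left out of the pDC-like fit with 9 cells, was at 1699.0 CPM, below both CaMKK2 KO mice in it. Ly6c1 passed 200 UMIs only over all cells, where its log2 fold change was 2.25 ± 0.70 (adjusted p = 0.165). In classical monocyte-like cells, which held 75 of its CaMKK2 KO UMIs, Ly6c1 ranged from 0 to 1.9 CPM in WT and 2.6 to 7.4 CPM in CaMKK2 KO mice without overlap. The WT mice held only 0, 3, 2 and 3 UMIs there, and the 0 of WT mouse 1, from 38 cells, allows up to 6.67 CPM. In CaMKK2 KO mouse 1, the highest, 3 cells held 86.4% of its 22 UMIs. Over all cells the other values were 1.69 ± 0.49 for Ly6a, 1.89 ± 0.64 for Ly6c2, 2.81 ± 0.78 for Ly6i, 0.56 ± 0.23 for Ly6e and 0.33 ± 0.57 for Ly6d, with adjusted p of 0.141, 0.188, 0.136, 0.254 and 0.795. DESeq2 called Ly6a, Ly6i and Ly6c1 over all cells, where it called 6.28% of all genes.

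Whether the genotype difference itself differed between TAM-like cells and each other class was tested by an interaction term with mouse as a block. None of 43 such tests passed, the lowest adjusted p was 0.152, and 13 had an unadjusted p under 0.05. With trimmed-mean (TMM) scaling the lowest was 0.120, with 15 under 0.05 unadjusted. The share of all genes under 0.05 unadjusted is not given, so these 2 unadjusted counts have no background. The percentage of all genes called in the same interaction fits was 0.0323% for microglia-like, 0.0140% for classical monocyte-like, 0.996% for non-classical monocyte-like, 0.327% for DC2-like, 0.649% for mature migratory DC-like, 1.16% for NK-like, 0.432% for CD8 T-like, 0.0923% for CD4 T-like, 0.163% for Treg-like, 0.221% for other T and 0.741% for B-like cells, and 0% for DC1-like and pDC-like cells. For Ly6a the value in microglia-like cells was -0.69 ± 0.31 (SE) relative to TAM-like cells and that in pDC-like cells -0.85 ± 0.24, with edgeR adjusted p of 0.315 and 0.388. That Ly6a passed in NK-like and not in TAM-like cells is therefore no measured difference between the 2 classes.

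Ly6a, Ly6c2 and Ly6i were found together in a larger share of single TAM-like and classical monocyte-like cells of CaMKK2 KO mice. Of TAM-like cells thinned to 2000 UMIs, 0%, 8.39%, 9.24% and 5.93% held a UMI of all 3 genes in WT mice 1 to 4, and 18.3%, 45.1%, 16.5% and 63.2% in the CaMKK2 KO mice. The 2 genotypes did not overlap. In classical monocyte-like cells the shares were 0%, 8.48%, 12.5% and 10.8% in WT and 21.9%, 39.0%, 39.9% and 53.0% in CaMKK2 KO mice. Other phagocyte classes overlapped. Microglia-like cells stood at 0%, 1.52%, 0% and 0% in WT and 0%, 7.69%, 0% and 0% in CaMKK2 KO mice. Non-classical monocyte-like cells stood at 5.41%, 0% and 0% in WT mice 2 to 4 and 4.76%, 3.23%, 6.67% and 12.8% in CaMKK2 KO mice. TAM-like cells with none of the 3 made up 31.2% to 83.9% of cells in WT mice and 2.30% to 20.1% in CaMKK2 KO mice. No test of co-detection beyond the levels of the single genes was made. In CD8 T-like cells, which had little Ly6i, at most 4.08% of the cells of any mouse held all 3.

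**Figure D4:**
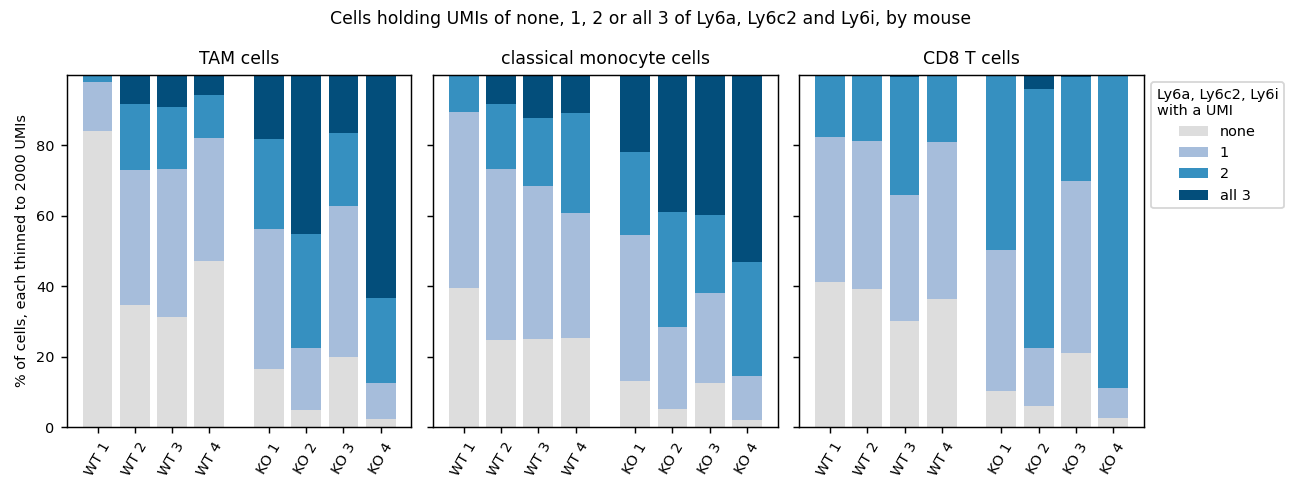
Share of cells (y, %) with UMIs of none, 1, 2 or all 3 of Ly6a, Ly6c2 and Ly6i in each mouse (x) in 3 classes, each cell thinned to 2000 UMIs. The dark segment for all 3 genes is absent in TAM-like cells of WT mouse 1 and reaches 63.2% in CaMKK2 KO mouse 4.

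Levels in each mouse were set beside those of genes of the type II interferon (interferon-γ) response, a list of 27 genes that holds no member. Summed over the list, TAM-like cells held 1112.8, 3200.5, 4418.3 and 3327.1 CPM in WT and 5885.2, 9204.9, 4589.5 and 10844.2 CPM in CaMKK2 KO mice, with WT mouse 1 lowest and CaMKK2 KO mice 2 and 4 highest, as for the 3 members (the plot of levels in each mouse). In classical monocyte-like cells the sums were 1417.6, 4128.0, 10040.8 and 5688.3 against 9159.2, 16097.2, 6281.2 and 15331.0 CPM, which overlapped. There WT mouse 3 had a higher list sum than CaMKK2 KO mice 1 and 3 and lower Ly6a, Ly6c2 and Ly6i than both. Of the 24 genes of the list tested in TAM-like cells 1 was called, Ciita, the transactivator of MHC class II genes, at 7.2 to 42.4 CPM in WT and 175.2 to 279.1 CPM in CaMKK2 KO mice (log2 fold change 2.83 ± 0.45 (SE), edgeR adjusted p = 0.0121). All 24 lay above 0, with a median of 1.11 where the median of all genes tested was -0.09. In microglia-like cells, where Ly6i rose, 5 of 21 were called higher and none lower, with a median of 0.95 against -0.11 for all genes: Ciita at 2.69 ± 0.58, the guanylate-binding protein genes Gbp2, Gbp4 and Gbp5 at 2.27 ± 0.53, 2.11 ± 0.46 and 2.04 ± 0.46, and the transcription factor gene Irf1 at 1.30 ± 0.25 (adjusted p from 0.0219 to 0.0448). In classical monocyte-like cells 1 of 25 was called, Ciita at 1.52 ± 0.19 (adjusted p = 0.0028). All 25 lay above 0 there, with a median of 1.02 against -0.04 for all genes. NK-like cells, where Ly6a and Ly6c2 rose, had a median of 0.16 against 0.07 over 19 genes, with the peptide transporter gene Tap1 higher at 0.49 ± 0.12 and the chemokine gene Cxcl10 lower at -1.41 ± 0.34 (adjusted p = 0.0425 and 0.0429). In CD8 T-like cells the 1 called of 19 was Serpina3g, a serine protease inhibitor gene, which was lower at -1.06 ± 0.21 (adjusted p = 0.0229). Of the 19 genes 15 lay above 0 in CD8 T-like cells, with a median of 0.34 against 0.06 for all genes. The part of this response in the Ly6 levels was not tested.

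Genes of the type I interferon response, such as the antiviral membrane protein Bst2 and Ifi27l2a, gave no call among 24 in TAM-like cells, with 22 above 0 and a median of 0.36. Ifi27l2a had a log2 fold change of 0.84 ± 0.32 (SE, edgeR adjusted p = 0.169) and Bst2 of -0.04 ± 0.29 (adjusted p = 0.959). In NK-like cells 1 of 20 was called, Xaf1, which was higher at 0.80 ± 0.16 (adjusted p = 0.0196). Of the memory and naive T cell list, Ly6c2 being a marker of memory CD8 T cells, 1 of 10 genes tested in NK-like cells was called, Klrg1, a receptor of mature NK and effector T cells, which was higher at 1.29 ± 0.24 (adjusted p = 0.0121), and 0 of 6 in CD8 T-like cells, where the median was -0.15 against 0.06 for all genes. Klf2, a transcription factor of resting lymphocytes, and Il7r, the interleukin-7 receptor, had values of -0.12 ± 0.42 and -0.18 ± 0.17 in CD8 T-like cells, with adjusted p of 0.939 and 0.638.

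Few other genes of the wider Ly6 and urokinase receptor family could be tested. Of 43 such genes 42 were in the files, and 4 had enough UMIs over all cells to be tested, with none called. Plaur, the urokinase receptor, was lower in microglia-like cells of CaMKK2 KO mice, at 22.7 to 67.7 against 81.9 to 153.2 CPM (log2 fold change -1.40 ± 0.29 (SE), edgeR adjusted p = 0.0252), and had a value of -0.78 ± 0.21 in TAM-like cells (adjusted p = 0.094). Cd177, a neutrophil member, was at most 3.5 CPM in TAM-like cells of any mouse. Of the 37 protein-coding genes between or beside the members on chromosome 15, 11 could be tested over all cells and none was called (the plot of neighbours by distance). Their median log2 fold change was 0.21, that of all genes -0.04. The highest was that of Ly6k, a family member lying between Ly6d and Ly6e, at 1.5 ± 0.34 (adjusted p = 0.080). Gsdmd, which encodes the pore-forming gasdermin D, had 0.48 ± 0.19 and Eef1d, a subunit of a translation elongation factor, -0.03 ± 0.13, with adjusted p of 0.251 and 0.931.

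**Figure D5:**
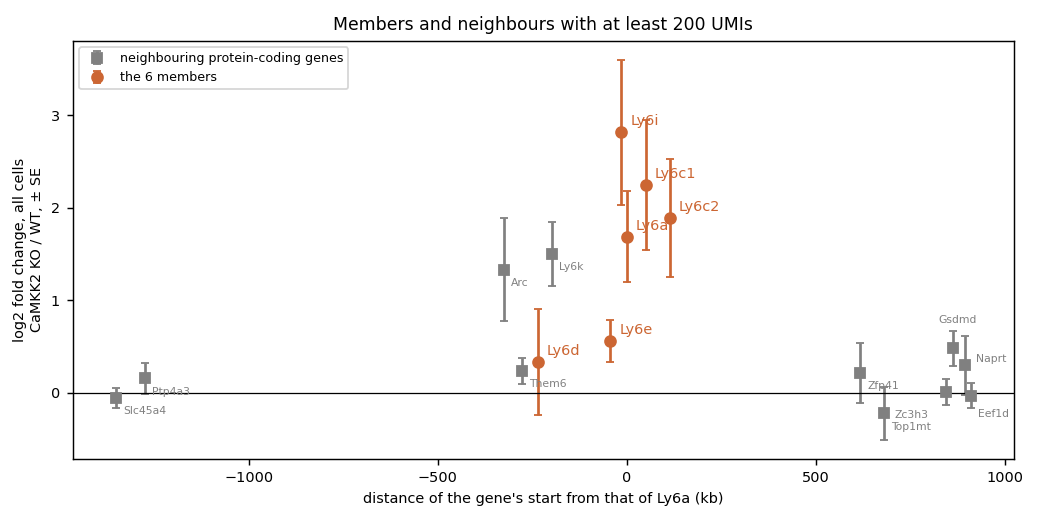
Log2 fold change over all cells ± SE (y) of the 6 members (orange circles) and of the 11 neighbouring protein-coding genes with at least 200 UMIs (grey squares), by distance of the gene's start from that of Ly6a (x, kb). Ly6i, Ly6c1, Ly6c2 and Ly6a lie between 1.69 and 2.81, while Ly6e and Ly6d, inside the same span, are at 0.56 and 0.33.

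Across the 28 class means of the 14 classes and 2 genotypes, the genes whose log2(CPM + 1) followed each member most closely among 11344 were taken as a description. These points share mice and libraries, so no p is given. Ly6i was followed most closely by Gsdmd (Pearson r = 0.89), which lies on the same chromosome, then Gm21188 and Nupr1 (0.87 each). Ly6e was followed by Hsp90b1 (0.85), a chaperone of the endoplasmic reticulum, H2-T24 (0.84) and Tnfaip8l2 (0.82), and Ly6a by Ndufaf3 (0.78), H2-T23 (0.75) and Snx9 (0.72). Ly6d was followed by Iglc3 (0.99), Gm30211 (0.99) and Iglc2 (0.97), of which Iglc2 and Iglc3 encode immunoglobulin light chain constant regions. Ly6c2, with H2aj (0.67), Dmac1 (0.65) and Smim4 (0.65), and Ly6c1, with Igsf23 (0.69), Rhod (0.65) and Pmm2 (0.65), had no close follower. Between members the values were low, from -0.27 for Ly6c1 and Ly6d to 0.43 for Ly6a and Ly6e, and that of the near copies Ly6c1 and Ly6c2 was 0.06.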

How the data were processed

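The deposited files held UMI counts per gene and cell of 2 10x Genomics 3′ libraries and of their hashtags; per the submitters' processing notes and the methods, the authors used bcl2fastq 2.20, Cell Ranger 4.0.0 and STAR 2.7.5c with mm10. Here hashtags were assigned with HTODemux (Seurat 5.3.0), doublets and negatives (667 and 48 WT, 508 and 67 CaMKK2 KO barcodes) were dropped, and cells over 3 MADs from the median (scuttle 1.12.0) or under 200 genes were removed. No doublet caller was run. Gates needed from 4 (T) to 64 (TAM) summed marker UMIs, every class but TAM and microglia had to stay under 32 TAM-marker UMIs, and cells in several gates were left out; 183 WT and 240 CaMKK2 KO cells lay between 32 and 64. Of 6689 WT and 7271 CaMKK2 KO barcodes, 42 occurred in both libraries. Counts were summed per mouse and marker class and tested with edgeR 4.0.16 (R 4.3.3; library size, total UMIs of the class), and DESeq2 1.42.0 and limma 3.58.1 were alternatives. The script was tested on simulated data. Thinning drew 2000 UMIs per cell, leaving out shallower cells. Exact permutation tests were two-sided over mice. Floors cover counting error only. The members and gene lists were chosen with earlier results of these data known. Genes beyond the members were named by rule: for each member the 3 genes most like it, and of each list the called genes with lowest p in TAM-like cells, else the 2 most abundant; Ly6k and the called list genes other than Ciita were added after their values were seen.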

Additional observations from a re-analysis of the deposited data

Results flagged for a closer look

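Of 71 groups of 4 mice examined, 3 held a mouse whose gap to the nearest other mouse exceeded, as a fraction of the group's range, Dixon's critical value. Chance flags about 1 in 20 groups. Ly6a in B-like cells was 1215.0 CPM in WT mouse 4 and 428.9 to 525.5 CPM in the other WT mice, a fraction of 0.877, and this mouse gave 16 B-like cells. Ly6e in TAM-like cells was 662.2 CPM in WT mouse 1 and 1632.0 to 1820.1 CPM in the others, a fraction of 0.838. Ly6e in CD8 T-like cells was 659.8 CPM in WT mouse 1, which gave 17 such cells, and 702.9 to 710.2 CPM in the others, a fraction of 0.854.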

How the results depend on the processing

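Of 389 log2 fold changes of a member recomputed under another scaling, test, filter, gate or block, 359 kept their direction and side of the threshold, and of 424 with a mouse left out 383 did. A call was lost in 3 of the 389 and 19 of the 424, and gained in 23 and 15. Only 6 of the 49 class tests were called, so most values that kept their side were uncalled ones. Percentages in parentheses are of all genes tested under the same setting. With DESeq2 the members called were 3 over all cells (6.28%), 1 in TAM (6.23%), 3 in classical monocyte (4.22%), 1 in non-classical monocyte (1.29%), 2 in DC2 (2.29%), 1 in mature migratory DC (3.15%), 1 in Treg (1.51%) and 1 in unclassed cells (3.66%). With marker sums doubled, 2 were called in microglia-like cells (1.63%), Ly6a and Ly6i. With at least 50 UMIs, 1 was called in DC2 (0.535%), 1 in mature migratory DC (0.612%) and 2 in CD8 T cells (1.24%), and with outlying cells kept 1 in DC2 cells (0.808%). With each cell given equal weight in limma, 0 were called in classical monocyte (1.09%), 1 in mature migratory DC (1.07%), 0 in CD8 T (0.302%) and 1 in unclassed cells (1.36%). With the hashtag number as a replicate block, 3 were called in classical monocyte (1.02%), 2 in mature migratory DC (9.40%), 0 in CD8 T (0.982%) and 1 in Treg cells (0.521%). The correlations of mice with the same number were 0.20, 0.04, -0.52 and -0.07 over all cells, 0.08, 0.21, -0.44 and 0.19 in TAM, -0.01, 0.17, -0.59 and 0.13 in classical monocyte and 0.03, -0.01, -0.30 and 0.22 in NK cells. Mice 2 and 4 correlated best with their own number in TAM and classical monocyte cells and mouse 4 in NK cells, and none did over all cells or in CD8 T cells. Since not every pair passed 0.1, the numbers were not read as pairs. With a mouse left out, members called ranged from 0 to 2 in TAM, DC2, mature migratory DC and CD8 T cells, from 0 to 1 in microglia, classical monocyte, non-classical monocyte, DC1, pDC, other T and unclassed cells, and from 1 to 2 in NK cells, with 0 throughout in CD4 T, Treg and B cells and over all cells. In pDC cells, and in DC1 cells for CaMKK2 KO mice, leaving out a mouse left 1 in a genotype, assumed to vary like the other genotype. The interaction count was 0 under all 3 settings run.

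Values that turned sign were Ly6d over all cells, from -0.03 (without WT mouse 1) to 0.669 with a mouse left out, Ly6e in CD4 T cells, from -0.264 to 0.056 (without WT mouse 2), Ly6c2 in non-classical monocyte cells, at -0.076 with stricter gates, and Ly6c2 in other T cells, at -0.085 by limma and from -0.195 (without CaMKK2 KO mouse 1) to 0.326 with a mouse left out. Ly6c2 in B cells was 0.501 by limma, 0.153 with stricter gates, and from -0.688 to 0.211 with a mouse left out, above 0 without WT mouse 3 or 4 or CaMKK2 KO mouse 2 or 3. None of these was called, and the cause was not tested.

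Scaling by total UMIs moved the median log2 fold change of all genes to -0.09 in TAM, -0.11 in microglia and 0.11 in other T cells, against which the values of members stand. Genes called higher and lower were 91 and 134 in TAM cells, and 104 and 74 with TMM scaling, 69 and 103 against 106 and 61 in microglia, 127 and 62 against 81 and 72 in NK, and 37 and 33 against 32 and 46 in CD8 T cells. DESeq2 called 371 higher and 206 lower in TAM cells, 339 and 373 over all cells (74 and 97 by edgeR) and 170 and 133 in classical monocytes (70 and 52 by edgeR). With 4 mice or fewer a genotype, exact permutation tests cannot fall below 0.029, and members under 200 UMIs in a class could not be tested there.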
